A study of Mus musculus with 32 samples.

Results

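The lysosomal hydrolases and membrane proteins were followed as a list of 37 genes: 9 membrane proteins, 12 enzymes, activators and sterol carriers of sphingolipid, ganglioside and cholesterol breakdown, 7 enzymes of glycosaminoglycan breakdown, 4 of glycogen and glycoprotein breakdown, and 5 peptidases, thioesterases and phosphatases. Cathepsins and V-ATPase subunits were not in the list. The members were found by matching the Ensembl identifiers of the count tables to mouse symbols, and all 37 were present among the 74021 genes of the LAG-3-sorted table, the 74016 genes of the stage table and the 74021 genes of the spinal cord table. After the filter on low counts, 37 members were tested among 16508 genes of sorted microglia, 37 among 18669 genes in the stage experiment and 36 among 17702 genes of the cord, where Acp5 was too low.

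Lysosomes are acidic organelles in which phagocytosed and autophagic material is taken apart. Soluble hydrolases carry a mannose 6-phosphate tag to the organelle, activator proteins lift lipids out of membranes so that the enzymes can reach them, and heavily glycosylated membrane proteins line the inner face of the limiting membrane. Inherited loss of many of these hydrolases causes storage diseases, and microglia, the phagocytes of the central nervous system, use the same machinery to digest myelin and dying cells. CD68 is widely stained as a mark of phagocytic microglia, and many genes of the class are targets of TFEB, a factor that binds a short promoter motif known as the CLEAR element.

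RNA-seq was carried out on 32 libraries of mouse lumbar spinal cord or of CD11b+/CD45int microglia sorted from it. In the first experiment, microglia of SOD1G93A mice at P140, a transgenic line that expresses mutant human SOD1 and models amyotrophic lateral sclerosis, were divided by surface LAG-3 into LAG-3-low (5 libraries) and LAG-3-high cells (5 libraries) and set beside microglia of WT mice (4 libraries), whose age the labels do not give. In the second, microglia were taken at P120 and at P140 from SOD1G93A mice with LAG-3 (SOD1G93A/LAG-3+/+) or without it (SOD1G93A/LAG-3-/-), with 3 libraries per group, and in the third whole lumbar cord came from both genotypes at P140 (3 libraries per group). LAG-3 is an inhibitory receptor known from T cells. The knockout is a germline deletion, so every cell type of these mice lacked LAG-3, and all groups other than WT carried the SOD1G93A transgene, which is expressed in all tissues. The sample titles, the methods and the list of RNA-seq samples, which gives sex and read totals, do not say whether LAG-3-low cells and LAG-3-high cells of 1 replicate number came from the same mouse or how many mice each library held, so the p-values measure the spread between these libraries.

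Totals ran from 9403475 to 22850586 estimated counts per library in sorted microglia, from 23981406 to 49512632 in the stage experiment and from 19430102 to 26994524 in the cord. Levels are given as CPM, counts scaled to a common library size with TMM factors. The Lag3 level matched the genotype labels, at 53.4 to 62.9 CPM in LAG-3+/+ and 0.163 to 0.462 CPM in LAG-3-/- microglia at P120, 24.5 to 28.1 and 0.0239 to 0.336 CPM at P140, and 43.4 to 74.5 and 5.50 to 5.72 CPM in the cord. In the sorted cells Lag3 was at 0.508 to 9.99 CPM in WT, 34.8 to 57.8 CPM in LAG-3-low and 146 to 195 CPM in LAG-3-high libraries. Some libraries differed in how counts depended on transcript length: the slope of log2 CPM per doubling of length was -0.39 and -0.53 in WT replicates 1 and 4 and -0.11 to 0.16 in the other sorted libraries, and -0.26 to -0.13 in P140 LAG-3+/+ libraries and -0.11 in P140 LAG-3-/- replicate 1 against 0.06 to 0.12 in the other stage libraries. In the cord it was 0.12 to 0.15 in LAG-3+/+ and -0.20 to -0.07 in LAG-3-/- libraries.

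Promoter sequences in RefSeq (GRCm38.p6, the 250 bases before the annotated start) were matched by symbol for 33 of the 37 members. The letters TCACGTGA, the centre of the CLEAR element and the same on both strands, occurred in 2 of the 33 (Gla and Cln3), a share of 6.06% beside 1.12% of 27025 genes with a promoter of the same length. The shorter core CACGTG, which lies inside TCACGTGA, occurred in 9 of the 33 (Lamp1, Cln3, Glb1, Gla, Arsa, Naglu, Sgsh, Gaa and Lgmn), or 27.3% beside 8.09% of all genes. Both members with the full letters are shown, with Lamp1, which held 4 copies of the core, and Naglu, which passed in all 3 comparisons of sorted microglia. Glb1, with 1 copy of the core, also passed in all 3 and is not shown. The capitals mark the matches, and the sequences are written on the strand of the gene. The promoter of Gla is chrX:134601006-134601255 on the minus strand, that of Cln3 chr7:126583237-126583486 on the minus strand, that of Lamp1 chr8:13158911-13159160 on the plus strand and that of Naglu chr11:101069844-101070093 on the plus strand.
Gla: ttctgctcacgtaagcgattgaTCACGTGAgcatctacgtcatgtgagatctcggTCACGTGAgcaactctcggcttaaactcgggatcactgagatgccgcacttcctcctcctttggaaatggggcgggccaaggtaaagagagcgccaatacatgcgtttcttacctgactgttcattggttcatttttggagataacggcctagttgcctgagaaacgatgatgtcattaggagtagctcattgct
Cln3: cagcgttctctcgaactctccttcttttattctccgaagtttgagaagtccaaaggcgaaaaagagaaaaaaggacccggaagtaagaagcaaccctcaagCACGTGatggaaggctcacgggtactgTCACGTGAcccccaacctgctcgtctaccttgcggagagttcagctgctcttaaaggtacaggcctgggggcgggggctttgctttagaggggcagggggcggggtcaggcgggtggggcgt
Lamp1: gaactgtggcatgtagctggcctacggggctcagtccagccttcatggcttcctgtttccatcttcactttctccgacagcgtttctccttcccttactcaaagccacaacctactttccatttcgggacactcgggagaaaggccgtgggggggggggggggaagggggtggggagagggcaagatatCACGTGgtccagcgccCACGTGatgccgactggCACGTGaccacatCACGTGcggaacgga
Naglu: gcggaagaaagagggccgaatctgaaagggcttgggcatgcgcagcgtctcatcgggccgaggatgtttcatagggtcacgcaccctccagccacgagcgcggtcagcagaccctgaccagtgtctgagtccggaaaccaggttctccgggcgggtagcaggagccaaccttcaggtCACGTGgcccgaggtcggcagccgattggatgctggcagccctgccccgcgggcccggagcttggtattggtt
A match is a run of letters and not a measured binding site.

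Between genes, levels were compared per kilobase of the canonical transcript. In LAG-3-high microglia Cd68 stood first, at 2128 ± 87.9 CPM per kilobase (SD, n = 5), followed by Psap at 1875 ± 228 and Laptm5 at 1703 ± 99.5. The spread of Psap overlapped those of both Cd68 and Laptm5. Hexa at 1246 ± 144 and Lgmn at 1241 ± 51.7 CPM per kilobase came next and did not differ beyond their spread. Arsa at 10.4 ± 0.992, Sgsh at 1.41 ± 0.904 and Acp5 at 1.12 ± 0.608 CPM per kilobase were lowest. The cord had another order, with Psap at 868 ± 30.1 (SD, n = 3), Lamp1 at 336 ± 23.5 and Lamp2 at 165 ± 17.2 CPM per kilobase at the top in LAG-3+/+ mice. Sgsh and Acp5 were thus close to the floor in microglia, and their fold changes are imprecise.

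The first comparison asked whether SOD1G93A microglia with much surface LAG-3 differ from those with little. LAG-3-high cells had more lysosomal transcripts. Summed over the members, the level was 9009 to 14834 CPM in WT, 19553 to 23346 CPM in LAG-3-low and 33609 to 36987 CPM in LAG-3-high libraries, and the 3 ranges did not overlap. With LAG-3-low cells as the reference, 15 of 37 members were higher and 0 lower at an adjusted p below 0.1, the threshold used throughout with no minimum fold (quasi-likelihood test of edgeR, adjusted by Benjamini-Hochberg across the genes tested). Of all genes tested, 1.59% were higher and 2.8% lower. The log2 fold change was above 0 for 35 members and below 0 for Hgsnat and Arsb, with a median of 0.78 over the members and -0.02 over all genes. In 25 members all LAG-3-high libraries lay above the LAG-3-low range and in 0 below it, which held for 8.95% and 6.52% of all genes. LAG-3-high cells shared their libraries between this comparison and that with WT, as did LAG-3-low and WT cells, so the 3 comparisons are not independent of each other.

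Among the membrane proteins, 3 of 9 passed with a higher level in the LAG-3-high cells. Cd68 (ENSMUSG00000018774, chromosome 11, 69555037 to 69557067 of GRCm39, minus strand), the gene of a scavenger receptor of the late endosome, was at 631, 1070, 1164 and 1246 CPM in WT, 1104, 1166, 1249, 1376 and 1421 CPM in LAG-3-low and 2415, 2531, 2544, 2548 and 2710 CPM in LAG-3-high libraries. Every LAG-3-high library lay above all others, and the LAG-3-low and WT ranges overlapped. Its log2 fold change over LAG-3-low cells was 1.01 ± 0.17 (SE; edgeR, Benjamini-Hochberg adjusted p = 0.00375), and between LAG-3-low and WT cells 0.30 ± 0.18 (edgeR, Benjamini-Hochberg adjusted p = 0.266). Lamp1, the major glycoprotein of the limiting membrane, was at 304, 578, 836, 1444 and 1862 CPM in LAG-3-low and 1756, 2129, 3125, 3201 and 3949 CPM in LAG-3-high libraries. These ranges met at 1 library each, and the log2 fold change was 1.49 ± 0.40 (SE; edgeR, Benjamini-Hochberg adjusted p = 0.0639). Lamp1 passed in 9 of 14 fits with 1 library left out. Scarb2, which carries glucocerebrosidase to lysosomes, rose by 0.70 ± 0.20 on the log2 scale (SE; edgeR, Benjamini-Hochberg adjusted p = 0.0918). It passed in 5 of 14 fits with 1 library left out. Lamp2, Laptm5, Npc1, Ctns and Cln3 had positive log2 fold changes of 0.36 to 0.75 that did not pass, and Hgsnat had -0.27.

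The lipid-degrading group had the most members past the threshold, 7 of 12 against LAG-3-low cells with a median log2 fold change of 1.01. Npc2 (ENSMUSG00000021242, chromosome 12, 84801334 to 84820617 of GRCm39, minus strand), the soluble carrier that hands cholesterol to NPC1, was at 318, 499, 580 and 714 CPM in WT, 485, 488, 519, 614 and 633 CPM in LAG-3-low and 1361, 1389, 1428, 1433 and 1590 CPM in LAG-3-high libraries. WT and LAG-3-low libraries overlapped and all LAG-3-high libraries were higher, with a log2 fold change over LAG-3-low cells of 1.39 ± 0.19 (SE; edgeR, Benjamini-Hochberg adjusted p = 0.000863) and between LAG-3-low and WT cells of 0.05 ± 0.19 (edgeR, Benjamini-Hochberg adjusted p = 0.883). Glb1, the lysosomal beta-galactosidase, went up in steps instead: 6.27, 13.6, 39.2 and 49.8 CPM in WT, 118, 136, 143, 175 and 186 CPM in LAG-3-low and 342, 405, 410, 426 and 492 CPM in LAG-3-high libraries. The 3 groups were separate, with log2 fold changes of 2.48 ± 0.46 from WT to LAG-3-low (SE; edgeR, Benjamini-Hochberg adjusted p = 0.00345) and 1.45 ± 0.41 from LAG-3-low to LAG-3-high cells (edgeR, Benjamini-Hochberg adjusted p = 0.078). The step from LAG-3-low to LAG-3-high cells passed for Glb1 in 4 of 14 fits with 1 library left out. Lipa, the acid lipase that frees cholesterol from its esters, Hexa, the alpha subunit of beta-hexosaminidase, and Gm2a, its ganglioside activator, rose by 1.03, 1.08 and 1.01 over LAG-3-low cells, which themselves had more than WT cells. Asah1, the acid ceramidase, and Arsa, which removes sulfate from sulfatide, rose by 0.89 and 1.01. Arsa was at 40.3, 44.1, 44.7 and 69.1 CPM in WT, 18.1 to 27.2 CPM in LAG-3-low and 39.3 to 50.2 CPM in LAG-3-high libraries, so that only the LAG-3-low group stood apart. Its rise over LAG-3-low cells passed in 10 of 14 fits with 1 library left out.

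Psap, the precursor of the 4 saposin activators, had the highest level per kilobase of the lipid group in LAG-3-low and LAG-3-high cells, but not in WT cells, where the mean of Hexa was higher. It was at 332, 419, 890 and 990 CPM in WT, 2607, 2632, 2911, 3156 and 3200 CPM in LAG-3-low and 4383, 4540, 4950, 5052 and 5931 CPM in LAG-3-high libraries. The groups did not overlap. The log2 fold change was 2.14 ± 0.28 from WT to LAG-3-low cells (SE; edgeR, Benjamini-Hochberg adjusted p = 0.000361), and the 0.78 ± 0.25 from LAG-3-low to LAG-3-high cells did not pass (edgeR, Benjamini-Hochberg adjusted p = 0.146). Galc, the galactosylceramidase that acts on myelin lipid, was at 0.254 to 7.76 CPM in WT, 23.4 to 42.6 CPM in LAG-3-low and 39.3 to 68.5 CPM in LAG-3-high libraries, and passed only in the comparisons with WT. Gla and Smpd1 passed only for LAG-3-high against WT cells, and Neu1 passed in none of these comparisons. WT libraries spread widely, with 0 to 30.6 CPM for Gla and 1.78 to 142 CPM for Neu1.

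In the glycosaminoglycan group, Naglu and Gusb passed between the 2 SOD1G93A groups. Naglu, which trims heparan sulfate, was at 35.3, 49.7, 76.8 and 104 CPM in WT, 204, 231, 234, 255 and 292 CPM in LAG-3-low and 455, 470, 474, 483 and 510 CPM in LAG-3-high libraries. It rose in both steps, by 1.87 ± 0.26 from WT to LAG-3-low cells (SE; edgeR, Benjamini-Hochberg adjusted p = 0.000474) and by 0.98 ± 0.24 from LAG-3-low to LAG-3-high cells (edgeR, Benjamini-Hochberg adjusted p = 0.0356). Gusb, the beta-glucuronidase, rose by 1.31 and 0.67 over the same steps. Its second step passed in 4 of 14 fits with 1 library left out. Arsb was at 208 to 252 CPM in LAG-3-high and 192 to 345 CPM in LAG-3-low libraries, with a log2 fold change of -0.18. Idua and Galns passed only between LAG-3-high and WT cells, while Ids and Sgsh passed in none of these comparisons.

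Of the glycogen and glycoprotein group, Fuca1 and Man2b1 passed for LAG-3-high against LAG-3-low cells. Fuca1 (ENSMUSG00000028673, chromosome 4, 135648004 to 135668235 of GRCm39, plus strand), the fucosidase of glycoproteins, had the smallest p of all members. It was at 231, 234, 272 and 299 CPM in WT, 210, 227, 262, 263 and 275 CPM in LAG-3-low and 474, 495, 507, 508 and 543 CPM in LAG-3-high libraries. LAG-3-high libraries were separate from the rest, and the log2 fold change was 1.03 ± 0.14 over LAG-3-low cells (SE; edgeR, Benjamini-Hochberg adjusted p = 0.000793) and -0.07 ± 0.14 between LAG-3-low and WT cells (edgeR, Benjamini-Hochberg adjusted p = 0.798). Man2b1, the lysosomal alpha-mannosidase, rose by 0.80 over LAG-3-low cells. Gaa, which degrades glycogen, was at 0.634, 90.2, 95.6 and 119 CPM in WT, 136 to 188 CPM in LAG-3-low and 367 to 461 CPM in LAG-3-high libraries. Its groups were separate, yet the log2 fold change of 1.41 ± 0.68 between the SOD1G93A groups did not pass (edgeR, Benjamini-Hochberg adjusted p = 0.441), and 1 WT library lay far below the other 3.

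Among peptidases, thioesterases and phosphatases, Ppt1 alone passed for LAG-3-high against LAG-3-low cells. Ppt1, which removes palmitate from proteins, was at 332 to 476 CPM in WT, 355 to 525 CPM in LAG-3-low and 608 to 780 CPM in LAG-3-high libraries, a log2 fold change of 0.78 ± 0.16 over LAG-3-low cells (SE; edgeR, Benjamini-Hochberg adjusted p = 0.0152). Lgmn, the asparagine endopeptidase legumain, showed the other pattern, with 558 to 2089 CPM in WT, 3140 to 4239 CPM in LAG-3-low and 3778 to 4250 CPM in LAG-3-high libraries. SOD1G93A libraries were all above WT libraries for Lgmn, and the ranges of the 2 SOD1G93A groups overlapped, with a log2 fold change of 0.15 ± 0.27 between them (edgeR, Benjamini-Hochberg adjusted p = 0.951). Tpp1, a tripeptidyl peptidase, and Acp2, an acid phosphatase, had log2 fold changes of 0.95 and 0.31 that did not pass. Acp5, the tartrate-resistant acid phosphatase, had no count in any WT library and 1.13 to 4.93 CPM in LAG-3-high libraries. The LAG-3-high mean was at least 57.3-fold higher, against a floor of 3 counts over the WT group. LAG-3-low libraries had 0 to 2.71 CPM of Acp5, and their mean of 1.05 CPM was 22.6-fold that floor.

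**Figure D1:**
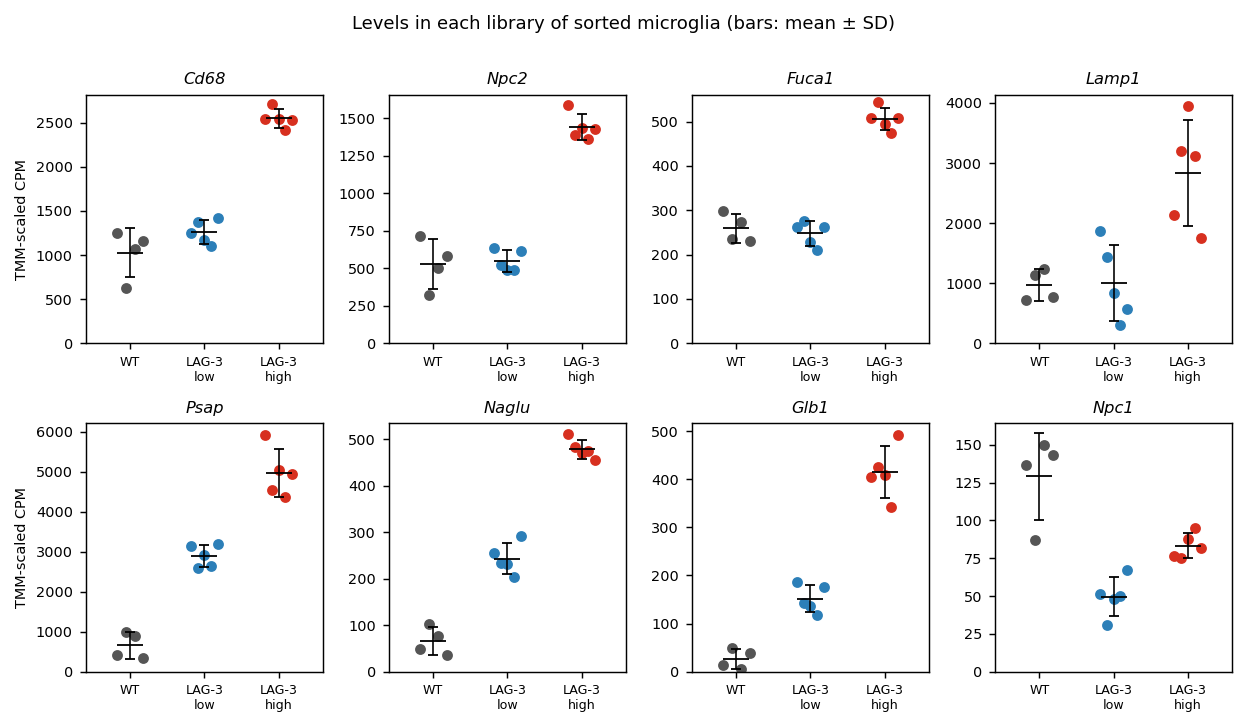
Levels of 8 members in each library of sorted microglia (vertical axes, TMM-scaled CPM from 0) for WT cells and for SOD1G93A cells low or high in LAG-3, with bars for mean ± SD. For Cd68, Npc2 and Fuca1 the LAG-3-high libraries lie above WT and LAG-3-low libraries, which overlap, and for Psap, Naglu and Glb1 the 3 groups are separate and rise in order.

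With WT cells as the reference, 26 of 37 members were higher in the LAG-3-high group and 1, Npc1, was lower, where 13.8% of all genes were higher and 16.5% lower. The median log2 fold change of the members was 1.42 beside -0.08 over all genes, and in 26 members (70.3%) all LAG-3-high libraries lay above the WT range and in 0 below it, beside 12.4% and 8.55% of all genes. In the LAG-3-low group 13 members were higher than in WT cells and 2, Npc1 and Arsa, were lower, beside 12% and 12.9% of all genes, and the median log2 fold change was 0.67. All LAG-3-low libraries lay above the WT range in 15 members and below it in 3, beside 9.78% and 5.95% of all genes. Npc1, the membrane partner of Npc2, was at 87.0, 137, 143 and 150 CPM in WT, 30.9 to 67.1 CPM in LAG-3-low and 75.1 to 94.9 CPM in LAG-3-high libraries. The LAG-3-low range was below both others, with a log2 fold change from WT of -1.38 ± 0.24 (SE; edgeR, Benjamini-Hochberg adjusted p = 0.00212). From WT to LAG-3-high cells it was -0.63 ± 0.24 (edgeR, Benjamini-Hochberg adjusted p = 0.0699). Correction for transcript length and GC content moved the median of all genes to -0.64 for LAG-3-high and -0.70 for LAG-3-low cells against WT. With it, 14 members were higher and 4 lower in the first comparison and 6 higher and 11 lower in the second. This correction centred at the median of each library gave 13 higher and 4 lower in LAG-3-low cells.

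**Figure D2:**
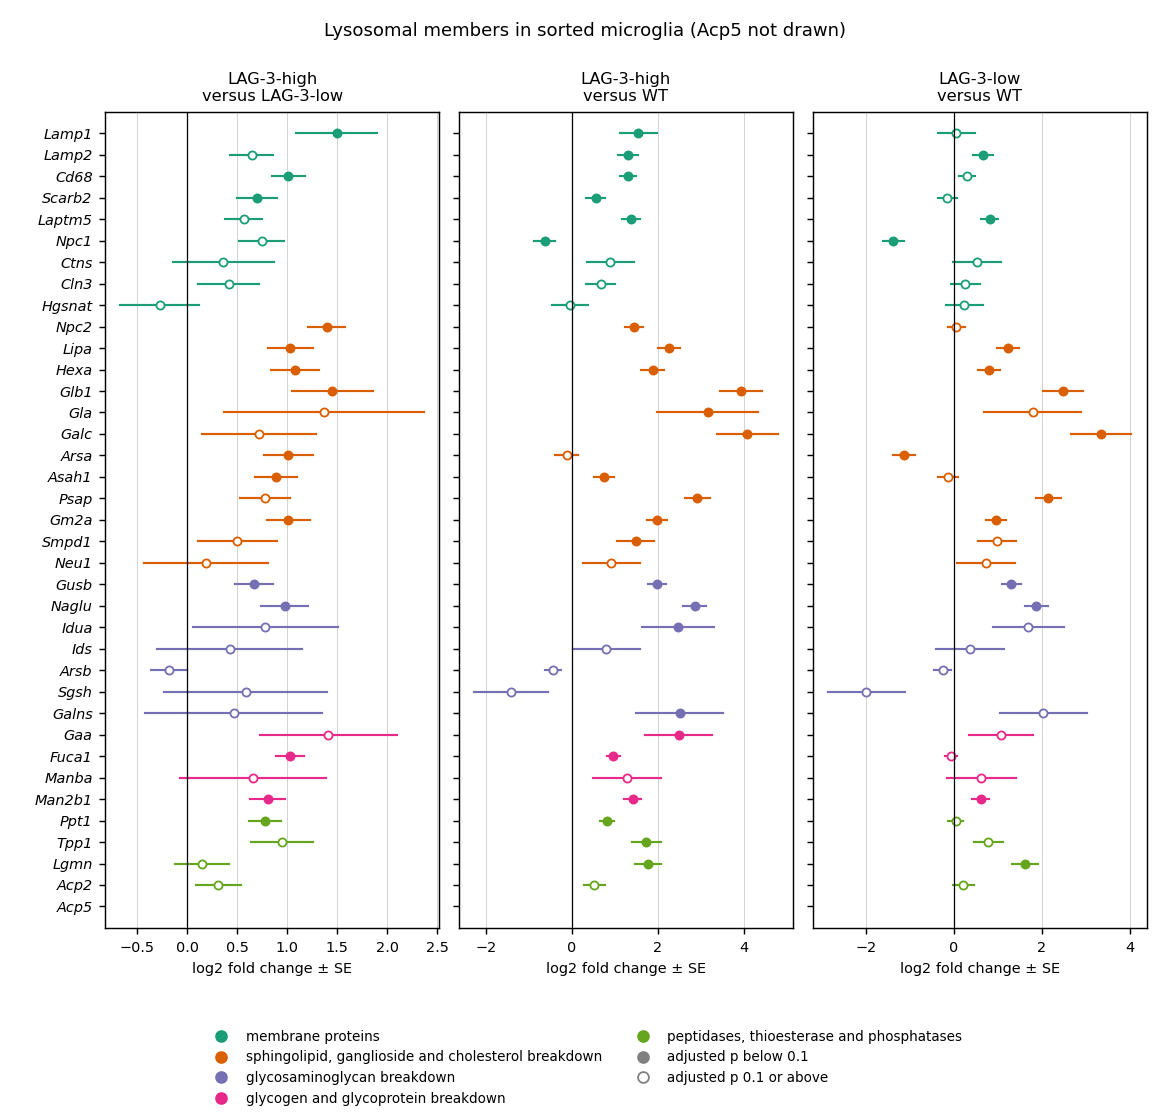
Log2 fold change ± SE (horizontal axis) of 36 members, one row each and coloured by role, in the 3 comparisons of sorted microglia. Filled points passed at an adjusted p below 0.1. Most members lie to the right of 0 in LAG-3-high cells, 35 of 37 against LAG-3-low cells, and Npc1 lies to the left in both comparisons with WT. Acp5, which had no count in WT, is not drawn.

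The count of 15 higher members depended on the libraries and the scaling. Without LAG-3-low replicate 3 the count was 9, and with WT replicates 1 and 4 left out, an alternative chosen after seeing the data, it was 23 beside 14.4% of all genes called in either direction. Without TMM scaling, which moved the median of all genes to -0.40, Cd68, Npc2 and Fuca1 passed, and these 3 passed in every one of 25 settings. Other markers differed between the sorted groups as well. The 10 neutrophil markers summed to 5980 to 70492 CPM in WT, 22843 to 66432 CPM in LAG-3-low and 1.21 to 7.33 CPM in LAG-3-high libraries, where 4 of the 10 had at most 3 counts in every library. The 9 disease-associated microglia markers, such as Apoe and Lpl, summed to 1924 to 6613, 26792 to 43452 and 102993 to 130561 CPM in the same order, and the 9 microglia markers to 23596 to 30604, 8904 to 14510 and 10871 to 12246 CPM. The part of these markers in the members' differences was not tested.

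Further lysosomal genes were read from lists of 101 genes, of which 98 were tested in microglia. Of these, 17 were higher and 0 lower in LAG-3-high cells relative to LAG-3-low cells. Relative to WT, 43 were higher and 8 lower in the LAG-3-high group, and 23 were higher and 12 lower in the LAG-3-low group. As shares of the 98 these were 17.3% and 0%, 43.9% and 8.16%, and 23.5% and 12.2%, beside 1.59% and 2.8%, 13.8% and 16.5%, and 12% and 12.9% of all genes, so that the share lower in LAG-3-low cells was near that of all genes. Of the 17, 10 were other hydrolases and lumen proteins, led by Creg1, a glycoprotein of the lumen, at a log2 fold change of 1.35 ± 0.16 (SE; edgeR, Benjamini-Hochberg adjusted p = 0.000258), and Grn, the progranulin gene, at 1.06 ± 0.16 (edgeR, Benjamini-Hochberg adjusted p = 0.00198). Mfsd12, a cysteine transporter of the lysosomal membrane, led the 4 membrane proteins, channels and transporters with 1.31 ± 0.17 (edgeR, Benjamini-Hochberg adjusted p = 0.000793). The cation-dependent mannose 6-phosphate receptor M6pr rose by 0.60 and the tagging subunit Gnptg by 0.92, the 2 of 18 sorting genes that passed. In the list of fusion and positioning genes, Arl8b, which couples lysosomes to kinesin, was the single one of 27 that passed, with 0.69 ± 0.18 (edgeR, Benjamini-Hochberg adjusted p = 0.0507).

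The second experiment asked how LAG-3 loss and the stage of disease bear on microglia. At P120, 0 of 37 members passed between LAG-3-/- and LAG-3+/+ microglia by edgeR, 0 had an unadjusted p below 0.05 and DESeq2 also called 0, where 0% of all genes were higher and 0.0107% lower. Log2 fold changes ran from -0.46 to 1.09 with a median of -0.12, and the summed level was 21565 to 25998 CPM in LAG-3+/+ and 19335 to 22396 CPM in LAG-3-/- libraries. The LAG-3-/- libraries all lay above the LAG-3+/+ range in 1 member and below it in 0, beside 4.85% and 6.63% of all genes. Psap had the lowest log2 fold change, -0.46 ± 0.29, at 1408 to 2381 CPM in LAG-3+/+ and 1315 to 1601 CPM in LAG-3-/- libraries, which overlapped. Neutrophil markers differed between these groups, with sums of 1745 to 2583 CPM in LAG-3+/+ and at most 3.16 CPM in LAG-3-/- libraries, where 8 of the 10 markers had at most 3 counts in every library, and their part in the members' values was not tested.

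From P120 to P140, LAG-3+/+ microglia moved in both directions. Of the 37 members, 10 were higher and 8 lower at P140, beside 11.9% and 15.5% of all genes, with a median log2 fold change of 0.22 over the members and -0.22 over all genes. In 11 members every P140 library exceeded every P120 library (16.8% of all genes) and in 9 every P140 library was below (25.4% of all genes). The rises lay in membrane proteins (Cd68, Cln3, Ctns and Scarb2), lipid breakdown (Asah1, Hexa and Npc2), both Ppt1 and Tpp1, and Fuca1. The falls were Arsb, Ids and Idua of glycosaminoglycan breakdown, Gaa, Man2b1 and Manba of glycogen and glycoprotein breakdown, Arsa, and Lamp1. Disease-associated microglia markers summed to 22247 to 35826 CPM at P120 and 74337 to 136880 CPM at P140 in these cells, with 6 of 9 higher and 1 lower. The 8 markers of border macrophages and monocytes summed to 9.78 to 16.6 CPM and 101 to 147 CPM, with 1 of 6 tested higher, and 2 of the 8 had at most 3 counts in every library at each stage. Their part in the members' differences was not tested. The split between rises and falls depended on scaling, with 6 higher and 16 lower without TMM scaling, which moved the median of all genes to -0.70, and 15 higher and 3 lower under the length and GC correction, which moved it to 0.38.

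Cd68 was at 1359, 1466 and 1509 CPM at P120 and 3133, 4225 and 4614 CPM at P140 in LAG-3+/+ microglia. All P140 libraries were higher, with a log2 fold change of 1.47 ± 0.26 (SE; edgeR, Benjamini-Hochberg adjusted p = 0.00636). Fuca1 rose from 244, 277 and 330 CPM to 581, 670 and 770 CPM, by 1.25 ± 0.29 (SE; edgeR, Benjamini-Hochberg adjusted p = 0.0147). Ppt1 rose from 489, 568 and 575 CPM to 971, 1215 and 1371 CPM, and Hexa from 1199, 1383 and 1683 CPM to 2634, 3117 and 3414 CPM, with log2 fold changes of 1.12 and 1.10. The groups of each of these genes were separate. Cd68, Hexa, Ppt1, Fuca1 and Asah1 passed in every one of 22 settings, as did the falls of Idua and Arsb.

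Lamp1 had the largest fall. It was at 1838, 2146 and 2435 CPM at P120 and 148, 325 and 741 CPM at P140, a log2 fold change of -2.40 ± 0.70 (SE; edgeR, Benjamini-Hochberg adjusted p = 0.0354), with the groups well apart. Arsb, the sulfatase of dermatan sulfate, fell from 315, 321 and 338 CPM to 68.2, 72.1 and 136 CPM, by 1.81 on the log2 scale (SE 0.36; edgeR, Benjamini-Hochberg adjusted p = 0.00901). Gaa was at 161, 265 and 282 CPM at P120 and 39.1, 67.4 and 97.8 CPM at P140, and Idua, the iduronidase of heparan and dermatan sulfate, at 78.7, 100 and 119 CPM and 24.4, 46.7 and 49.0 CPM. Both dropped in every P140 library, with log2 fold changes of -1.79 and -1.31. Ids, the iduronate sulfatase that acts beside Idua, had -1.61 ± 0.33 (edgeR, Benjamini-Hochberg adjusted p = 0.00928).

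**Figure D3:**
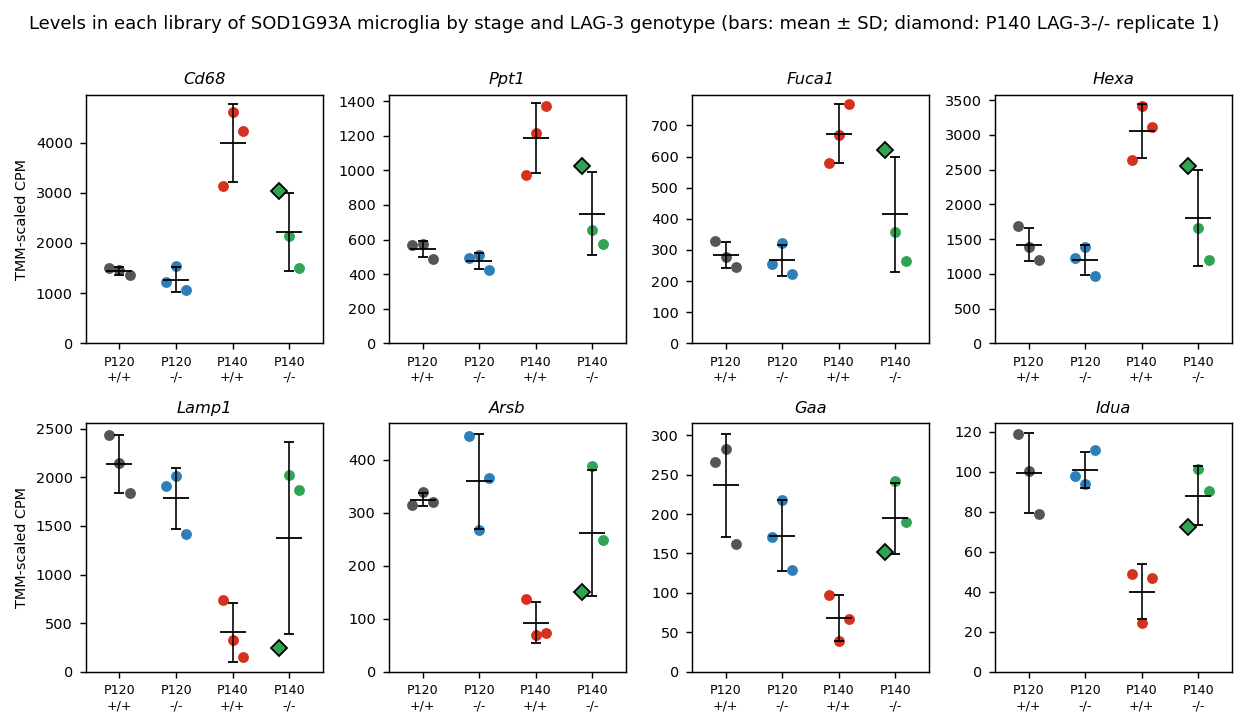
Levels of 8 members in each library of SOD1G93A microglia (vertical axes, TMM-scaled CPM from 0) by stage and LAG-3 genotype, with bars for mean ± SD and a diamond for P140 LAG-3-/- replicate 1. The top row shows members that rose from P120 to P140 in LAG-3+/+ cells and the bottom row members that fell. P140 LAG-3-/- replicate 1 lies closer to the P140 LAG-3+/+ libraries than the other LAG-3-/- libraries do in each of the 8 panels.

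Members that rose had shorter transcripts than members that fell, with median lengths of 2709 and 4252 bases. With length and GC content corrected and each library centred at its median, an alternative chosen after seeing the data, all 10 rises passed and 5 of the 8 falls did (Arsb, Gaa, Ids, Idua and Lamp1). Without centring, Arsb, Idua and Lamp1 passed, while the log2 fold changes of Man2b1 and Manba changed sign to 0.22 and 0.37.

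**Figure D4:**
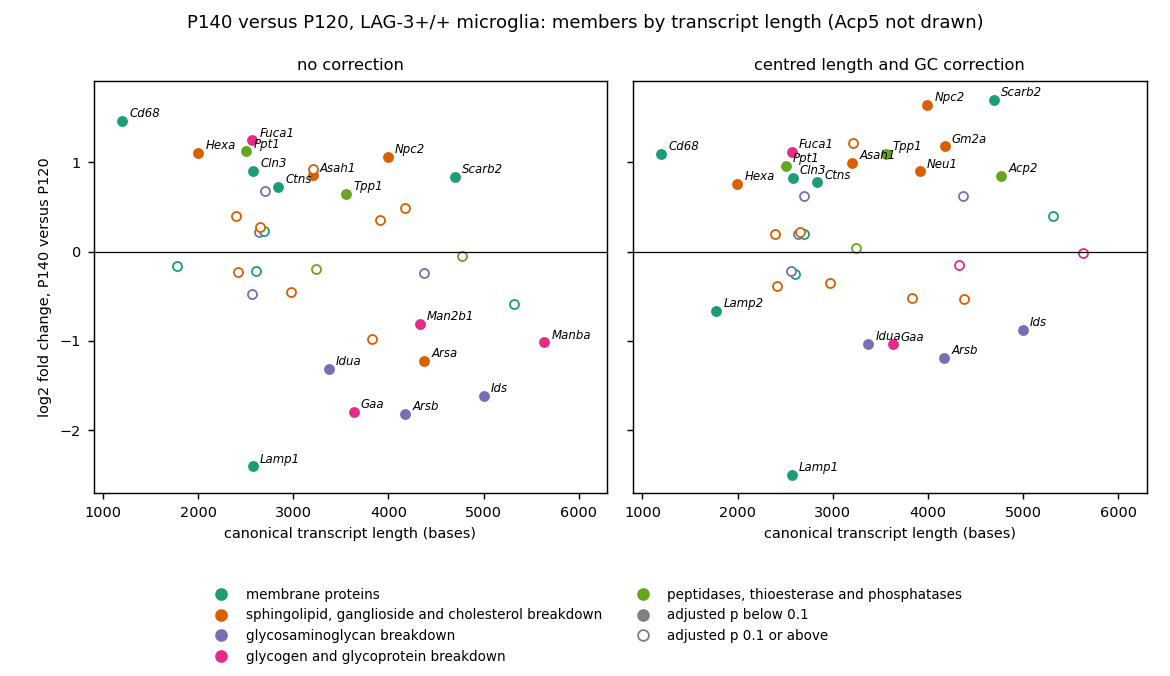
Log2 fold change from P120 to P140 in LAG-3+/+ microglia (vertical axis) against canonical transcript length in bases (horizontal axis) for 36 members, without and with the centred correction for length and GC content. Filled and named points passed at an adjusted p below 0.1. The 10 rises stay filled in the right panel, and Arsa, Man2b1 and Manba lose their fill.

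In LAG-3-/- microglia, 0 members passed between P140 and P120 by edgeR, where 0% of all genes were higher and 0% lower, 9 members had an unadjusted p below 0.05 and DESeq2 called 1, Psap. The log2 fold changes ran from -0.74 to 1.22, with 30 above 0. P140 libraries all lay above the P120 range in 5 members and below it in 0, beside 7.39% and 7.37% of all genes. Psap was at 1315, 1421 and 1601 CPM at P120 and 1805, 3380 and 4199 CPM at P140, which were separate, with a log2 fold change of 1.11 ± 0.29 (SE; edgeR, Benjamini-Hochberg adjusted p = 0.475). Cd68 was at 1055, 1216 and 1541 CPM and 1499, 2131 and 3035 CPM, overlapping, with 0.81 ± 0.25. The 10 neutrophil markers summed to at most 3.16 CPM at P120, where 8 had at most 3 counts in every library. At P140 they summed to 1.03, 843 and 4614 CPM. Their part in the members' values was not tested. The stage effect was tested for a difference between genotypes by the interaction term, for which 0 of 37 members passed by edgeR, 0.161% of all genes were above and 0.0107% below 0 with an adjusted p below 0.1, 7 members had an unadjusted p below 0.05 and DESeq2 called 2, Arsa and Gaa. A difference in stage effect between the genotypes was therefore not shown for the members with all libraries in the fit.

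At P140, 5 members were higher in LAG-3-/- than in LAG-3+/+ microglia (Gaa, Arsb, Idua, Arsa and Man2b1) and 1, Cd68, was lower, beside 7.22% of all genes higher and 3% lower. LAG-3-/- libraries all lay above the LAG-3+/+ range in 8 members and below it in 3, beside 12.2% and 8.92% of all genes. This comparison shared its LAG-3+/+ libraries with the stage comparison, so the 2 are not independent. Arsb was at 68.2, 72.1 and 136 CPM in LAG-3+/+ and 151, 248 and 387 CPM in LAG-3-/- libraries, a log2 fold change of 1.51 ± 0.36 (SE; edgeR, Benjamini-Hochberg adjusted p = 0.046). Gaa was at 39.1 to 97.8 CPM and 152, 190 and 242 CPM, with 1.51 ± 0.35 (SE; edgeR, Benjamini-Hochberg adjusted p = 0.0431). Cd68 was at 3133 to 4614 CPM in LAG-3+/+ and 1499, 2131 and 3035 CPM in LAG-3-/- libraries, with -0.85 ± 0.25 (SE; edgeR, Benjamini-Hochberg adjusted p = 0.0822). Each pair of groups was separate, and 1 LAG-3-/- library lay next to the LAG-3+/+ range for Arsb and Cd68. Lamp1 was at 242, 1870 and 2029 CPM in LAG-3-/- libraries beside 148 to 741 CPM, and its log2 fold change of 1.77 ± 0.68 did not pass (edgeR, Benjamini-Hochberg adjusted p = 0.149).

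The P140 comparison rested on single libraries. Without P140 LAG-3-/- replicate 1, the one with 242 CPM of Lamp1, 10 members were higher in LAG-3-/- cells (Arsa, Arsb, Gaa, Ids, Idua, Lamp1, Lipa, Man2b1, Manba and Npc1) and 5 lower (Asah1, Cd68, Fuca1, Hexa and Ppt1), beside 20.2% of all genes in either direction. In that fit the log2 fold change of Lamp1 was 2.27 ± 0.49 (edgeR, Benjamini-Hochberg adjusted p = 0.0148) and that of Ppt1 -0.95 ± 0.17 (edgeR, Benjamini-Hochberg adjusted p = 0.007), and the interaction passed for Arsb, Gaa, Ids and Lamp1 above 0 and for Asah1, Fuca1 and Ppt1 below 0, beside 8.35% of all genes. Without P140 LAG-3-/- replicate 2 or 3 the count was 0, without P140 LAG-3+/+ replicate 2 or 3 it was 1, and without P120 LAG-3+/+ replicate 2 or 3 or P120 LAG-3-/- replicate 1 it was 3. None of the 6 members passed in every setting, and with the centred length and GC correction Idua alone was left. Disease-associated microglia markers summed to 74337 to 136880 CPM in P140 LAG-3+/+ and 31808 to 61026 CPM in P140 LAG-3-/- libraries, and their part in the members' differences was not tested.

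Other lysosomal genes passed in both directions with stage. Of 98 tested, 37 (37.8%) were higher and 24 (24.5%) lower at P140 in LAG-3+/+ microglia, beside 11.9% and 15.5% of all genes, 0 passed in LAG-3-/- microglia (22 at an unadjusted p below 0.05), and 11 (11.2%) were higher and 8 (8.16%) lower in LAG-3-/- than in LAG-3+/+ microglia at P140, beside 7.22% and 3% of all genes. The peptidase Cpq rose by 2.01 ± 0.30 and Aga, which cleaves asparagine-linked sugar, by 1.51 ± 0.22 on the log2 scale with stage, while Vps39 and Vps18, subunits of the HOPS tethering complex, had log2 fold changes of -2.37 and -2.72 with stage and of 2.10 and 2.13 with LAG-3 loss. All of these passed in edgeR with Benjamini-Hochberg adjustment. For these other lysosomal genes only the fit with all libraries and without length correction is given. The comparisons of stage and of LAG-3 loss shared the P140 LAG-3+/+ libraries and are not independent. The interactions of Vps39 and Vps18 did not pass (edgeR, Benjamini-Hochberg adjusted p = 0.185 and 0.187).

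The third experiment asked what LAG-3 loss does in the lumbar cord at P140. In these bulk samples fewer cells of a type and less RNA per cell cannot be told apart. Of 36 members tested, 18 were lower in LAG-3-/- cord and 1, Neu1, was higher, beside 23.9% and 23.1% of all genes, and no change exceeded 2-fold. The median log2 fold change was -0.30 beside 0.00223 over all genes. In 18 members every LAG-3-/- library was below every LAG-3+/+ library, which held for 26.1% of all genes, and in 1 above, beside 25.5% of all genes. The summed level was 7355 to 7897 CPM in LAG-3+/+ and 6270 to 7045 CPM in LAG-3-/- cord.

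The lower members came from every role. Among membrane proteins Cd68 was at 75.2, 112 and 118 CPM in LAG-3+/+ and 41.3, 55.7 and 72.1 CPM in LAG-3-/- cord, separate by a small gap, with a log2 fold change of -0.85 ± 0.23 (SE; edgeR, Benjamini-Hochberg adjusted p = 0.0213). Lamp2, the receptor of chaperone-mediated autophagy, was at 262, 296 and 323 CPM and 183, 195 and 238 CPM, with -0.52 ± 0.13 (SE; edgeR, Benjamini-Hochberg adjusted p = 0.0109). Lipa had the smallest p, at 52.7, 59.7 and 60.9 CPM in LAG-3+/+ and 33.2, 33.5 and 40.8 CPM in LAG-3-/- cord, a log2 fold change of -0.69 ± 0.11 (SE; edgeR, Benjamini-Hochberg adjusted p = 0.00109). Of the other lipid enzymes, Galc, Glb1 and Asah1 had log2 fold changes of -0.43, -0.43 and -0.33. Neu1, a sialidase, was at 41.7, 44.0 and 45.2 CPM and 49.5, 53.9 and 56.5 CPM, higher in each LAG-3-/- library by 0.29 ± 0.10 on the log2 scale (SE; edgeR, Benjamini-Hochberg adjusted p = 0.0361).

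In the other groups Man2b1 was at 159, 190 and 204 CPM in LAG-3+/+ and 96.1, 126 and 146 CPM in LAG-3-/- cord, with a log2 fold change of -0.59 ± 0.16 (SE; edgeR, Benjamini-Hochberg adjusted p = 0.0124). Tpp1 was at 134, 151 and 155 CPM and 96.9, 108 and 111 CPM, with -0.48 ± 0.11 (SE; edgeR, Benjamini-Hochberg adjusted p = 0.00518). Both genes were separate between the genotypes. Arsb, Galns, Gusb and Ids of the glycosaminoglycan group had log2 fold changes of -0.49, -0.51, -0.47 and -0.35, and Manba, Acp2 and Ppt1 of -0.43, -0.40 and -0.27. The abundant members Psap, at 2224 to 2384 CPM and 2013 to 2259 CPM, and Lgmn, at 305 to 351 CPM and 311 to 369 CPM, did not pass, nor did Lamp1, at 826 to 934 CPM and 834 to 980 CPM with a log2 fold change of 0.04 ± 0.13 that was -0.0883 without TMM scaling and -0.0267 with the centred length and GC correction.

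**Figure D5:**
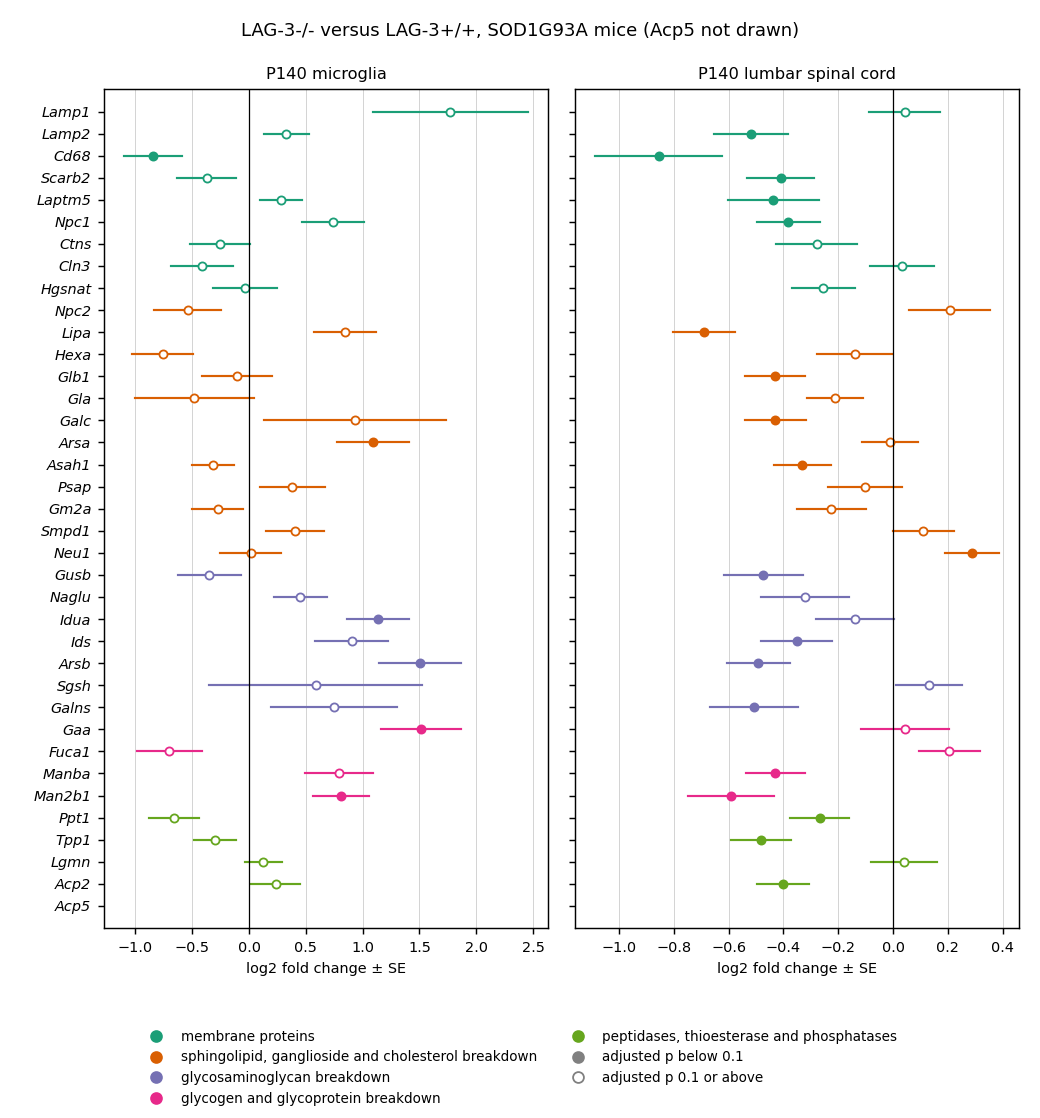
Log2 fold change ± SE (horizontal axes, with different ranges) of the members between LAG-3-/- and LAG-3+/+ SOD1G93A mice in microglia and in lumbar spinal cord at P140, coloured by role, with filled points for an adjusted p below 0.1. Cord values lie between -0.85 and 0.29, mostly left of 0, and microglial values have wider errors on both sides of 0. Acp5 is not drawn.

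Man2b1, Lamp2, Lipa, Gusb, Tpp1, Arsb and Glb1 passed in every one of 15 settings in the cord. With length and GC content corrected, 11 of the 18 lower members passed, and Neu1 did. Cell type markers moved with the genotype too. The 5 oligodendrocyte markers summed to 15978 to 17481 CPM in LAG-3+/+ and 22713 to 31982 CPM in LAG-3-/- cord, the 5 astrocyte markers to 12415 to 14258 CPM and 7228 to 11683 CPM, and the 9 microglia markers to 665 to 804 CPM and 527 to 713 CPM, with none of these markers near 0. The 9 disease-associated microglia markers summed to 5650 to 7478 CPM and 4490 to 7729 CPM, which overlapped, and 6 of the 9 passed as lower and 0 as higher, with a median log2 fold change of -0.74. Of the microglia markers 3 were lower and 1 higher. The part of all these markers in the members' differences was not tested. Of 100 other lysosomal genes tested, 20 (20%) were higher and 28 (28%) lower in LAG-3-/- cord, near the 23.1% and 23.9% of all genes. Hyal1, a hyaluronidase, fell by 1.22 and Gnptab and Igf2r, which make and bind the mannose 6-phosphate tag, by 0.65 and 0.60 on the log2 scale, while Bloc1s1, a subunit of the lysosome-positioning BORC complex, rose by 1.13 (edgeR with Benjamini-Hochberg adjustment for each).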

How the data were processed

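RNA-seq libraries of LAG-3-sorted microglia (14), stage-by-genotype microglia (12) and lumbar cord (6) were used. According to the study's methods and the submitters' processing notes, the authors trimmed reads with Trim Galore 0.6.7, quantified them with Salmon 1.9.0 and imported them with tximport in R 4.2.1. The deposited tables hold estimated counts per Ensembl gene, neither whole numbers nor normalized, on GRCm39; the annotation release is not given in the sources used here. Microglial libraries were made with a SMART-seq kit that amplifies cDNA, so counts are not independent molecules; for the cord the labels name the same kit and the study's methods a NEBNext directional kit. Counts were rounded, and each table was filtered with filterByExpr (at least 10 counts, total of at least 15), scaled by TMM and fitted with the robust quasi-likelihood method of edgeR 4.0.16 in R 4.3.3, a member passing at a Benjamini-Hochberg adjusted p below 0.1. Identifiers were named from GENCODE vM39, and those absent held at most 0.0514% of a table's counts.

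Depth was 9403475 to 49512632 counts per library. The fits were tested on simulated data for LAG-3-high against LAG-3-low cells, LAG-3 loss at P120 and the cord. Of 100 genes changed 4-fold, 40%, 46% and 98% were recovered in that order, and of 100 changed 16-fold 75%, 75% and 99%. False calls made up 6.5%, 4.72% and 12.8% of the genes called. In the simulated sorted and stage data many 4-fold changes were thus missed. The changed genes were drawn at random from all genes, so these shares need not hold for the members. Alternatives were DESeq2 1.42.0, RLE size factors, scaling to totals without TMM, omission of the filter, a filter at 10 counts on average, the listed sex, the replicate block, fits of the groups compared, an offset correcting length and GC content of transcripts, other thresholds and each replicate left out. Added after seeing the data were the centred correction and WT replicates 1 and 4 left out together. Named genes were the passing members (up to 8 by p in each direction), the smallest p in each role, Lamp1, Cd68 and Lag3, and 2 genes per pathway list; further members are named to account for the list, after their values were seen. The members and lists were chosen with earlier results of these data known.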

Additional observations from a re-analysis of the deposited data

Results flagged for a closer look

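Single libraries lay far from the rest of their group in 4 of the 111 combinations of member and sorted group that were examined, and chance flags about 1 in 20 groups. In LAG-3-high replicate 4, Scarb2 was at 215 CPM beside 239 to 247 CPM in the other 4 libraries, and Laptm5 at 3982 CPM beside 4486 to 4625 CPM. In WT replicate 1, Gla was at 30.6 CPM beside 0 to 4.36 CPM and Arsa at 69.1 CPM beside 40.3 to 44.7 CPM.

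For 1 member every library moved in opposite directions with stage in the LAG-3 genotypes, 1 of 37 (2.70%) beside 0.450% of all genes tested. The log2 fold change of Man2b1 from P120 to P140 was -0.81 in LAG-3+/+ and 0.25 in LAG-3-/- microglia. The interaction of Man2b1 was 1.05 and did not pass (edgeR, Benjamini-Hochberg adjusted p = 0.245).

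For 5 members the LAG-3 knockout separated the libraries in opposite directions in P140 microglia and P140 cord, 5 of 36 (13.9%), a share near the 11.9% of all genes tested in both tables. Log2 fold changes in microglia and cord were 0.84 and -0.69 for Lipa, 1.51 and -0.49 for Arsb, 0.75 and -0.51 for Galns, 0.79 and -0.43 for Manba, and 0.81 and -0.59 for Man2b1. In microglia Arsb and Man2b1 passed, while Lipa, Galns and Manba did not (edgeR, Benjamini-Hochberg adjusted p = 0.102, 0.449 and 0.139). The difference was not tested, since the tables were normalized separately.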

How the results depend on the processing

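Over the alternatives run, 1797 of 1955 recomputed log2 fold changes of named genes kept their direction and side of the threshold, 123 lost and 18 gained the call, and 17 changed sign. Members passing for LAG-3-high against LAG-3-low cells numbered 15, and 3 without TMM scaling, 26 in a fit of these groups alone, 23 without WT replicates 1 and 4, 9 with a 2-fold minimum and 9 to 21 with a library left out. For LAG-3 loss at P140 the 6 became 13 by DESeq2, 13 without TMM scaling, 0 with the length and GC correction, 1 with its centred form, 0 in a fit of these groups alone, 3 at an adjusted p below 0.05 and 0 to 15 with a library left out. Stage in LAG-3-/- cells gave 1 by DESeq2, and the interaction 2 by DESeq2, 1 without a filter and 0 to 7 with a library left out. The cord's 19 became 0 with a 2-fold minimum and 13 to 19 with a library left out. Left-out libraries gave 23 to 29 for LAG-3-high and 14 to 19 for LAG-3-low cells against WT, 14 to 19 for stage in LAG-3+/+ cells and 0 to 0 for stage in LAG-3-/- cells and LAG-3 loss at P120. Of all genes, 14.4% were called for LAG-3-high against LAG-3-low cells without WT replicates 1 and 4. Without P140 LAG-3-/- replicate 1, 20.2% were called for LAG-3 loss at P140 and 8.35% for the interaction. Shares of all genes are not given for the other alternatives, so those counts cannot be set against all genes. The CACGTG core was in 9 promoters in place of 2. Same-numbered libraries had a mean r over gene deviations of 0.014 in sorted, -0.0032 in stage and 0.00099 in cord libraries. The sorted mean ran over 13 pairs and took in pairs with WT, which cannot share a mouse with SOD1G93A cells. That mean therefore cannot decide whether the 2 SOD1G93A fractions of 1 number shared a mouse. The replicate block gave 10 for LAG-3-high against LAG-3-low cells and 3 for LAG-3 loss at P140. Signs changed for LAG-3-low against WT cells with the length and GC correction in Gm2a (-0.11), Man2b1 (-0.63), Cd68 (-0.15) and Lamp1 (-0.89); Lamp1 also gave -0.18 with sex as covariate, -0.0301 with the centred correction, -0.0401 without WT replicate 4, -0.12 without LAG-3-low replicate 2, -0.30 to 0.28 over all left-out libraries (lowest without LAG-3-low replicate 1), and -0.15 without WT replicates 1 and 4. With stage in LAG-3+/+ cells the correction turned Manba to 0.37 and Man2b1 to 0.22, Lamp1 with stage in LAG-3-/- cells was -0.77 to 0.13 with a library left out (highest without P140 LAG-3-/- replicate 1), and Lamp1 in the cord was -0.0883 without TMM scaling, -0.0460 and -0.0267 with the correction and its centred form, and -0.0337 to 0.0998 with a library left out (lowest without LAG-3-/- replicate 1). The cause of these changes was not tested. With 3 libraries per group, differences larger than the standard errors given could also be missed.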
